A study of Arabidopsis thaliana with 16 samples.

Results

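Root-restricted transcripts were taken as the probe sets of the Affymetrix ATH1 array whose mean linear signal exceeded 1000 in roots and stayed below 60 in shoots of 21-day wild-type Arabidopsis thaliana. Of 22746 probe sets without controls, 78 met both limits. The members were chosen by their signal on these 4 wild-type arrays, so the difference between wild-type roots and shoots at 21 days is a description of the choice and is not tested. A pair of probe sets was to be left out by name, one of them that of F6'H1, and neither met the limits.

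Transcripts were measured on 16 arrays in 8 groups of 2. In the 7-week experiment, wild-type plants stood in hydroponic control medium for 4 weeks, and then for another 3 weeks either in the same medium or without Zn, before roots and shoots were harvested apart. In the 21-day experiment, wild-type and hma2 hma4 seedlings were raised on agar plates of control medium, moved to vertical plates at 7 days and kept there for 14 days, and the same tissues were harvested. HMA2 and HMA4 are P-type ATPases that load Zn into the root xylem, so the double mutant asks how roots behave when less Zn leaves them for the shoot, while the Zn-deficient groups ask how they behave when less Zn is supplied. The labels give neither the accession of the wild type nor the alleles of the mutant, and no probe set is paired with HMA2 or HMA4 in the annotation used, so the genotype was not checked on the disrupted genes. Nothing in the labels says that the 2 arrays of a group came from separate cultures, so p-values measure the spread between arrays, which may be technical.

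Transcripts found in roots and not in shoots can come from cells particular to the root, such as root hairs, the root cap and the root endodermis with its Casparian strip. Their products build and loosen the wall of elongating cells, defend a surface exposed to soil microbes, and make specialised metabolites that the root secretes. The uptake of minerals also belongs to these cell layers, and Zn enters the plant through them.

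The platform annotation paired 40 of the 78 probe sets with 1 gene and 3 with several genes, and 35 are not listed in it and carry only their probe ID here. The 40 genes lie on all 5 chromosomes, with 10 on chromosome 1, 6 on chromosome 2, 8 on chromosome 3, 5 on chromosome 4 and 11 on chromosome 5. In the table from RefSeq, 3 of them have a symbol other than the locus number (UGT76B1, XTH19 and XTH20), so the families named below for the other loci are background knowledge of the Arabidopsis genome and not part of the files.

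The arrays carried the tissue of their label. A list of 6 green-tissue markers (PRK, PSBY, PSBW, RCA, SBPASE and PSAE-1) summed to between 67179 and 106691 on the 8 shoot arrays, to between 361 and 385 on the 4 root arrays of 7-week plants, and to between 1710 and 2014 on the 4 root arrays of 21-day plants. The root marker PYK10, a myrosinase of the root endoplasmic reticulum bodies, had a mean of 6233 in 7-week control roots and 125 in the shoots of the same plants, but 4146 in 21-day wild-type shoots against 17198 in their roots. For actin, the 3′ control probe set was 1.74 to 8.57 times as bright as the 5′ one on 7-week arrays. On 21-day arrays it was 17.3 to 30.3 times as bright, and a high ratio can be a sign of shortened RNA. A second actin pair set the experiments less far apart, and its ratios overlapped, although most 21-day arrays again had the higher ones. It read 5146 (3′) and 1808 (5′) on 7-week control shoot replicate 1, and 8987 and 3672 on 21-day hma2 hma4 root replicate 2. Signals of the experiments are therefore set side by side below with no test.

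**Figure D1:**
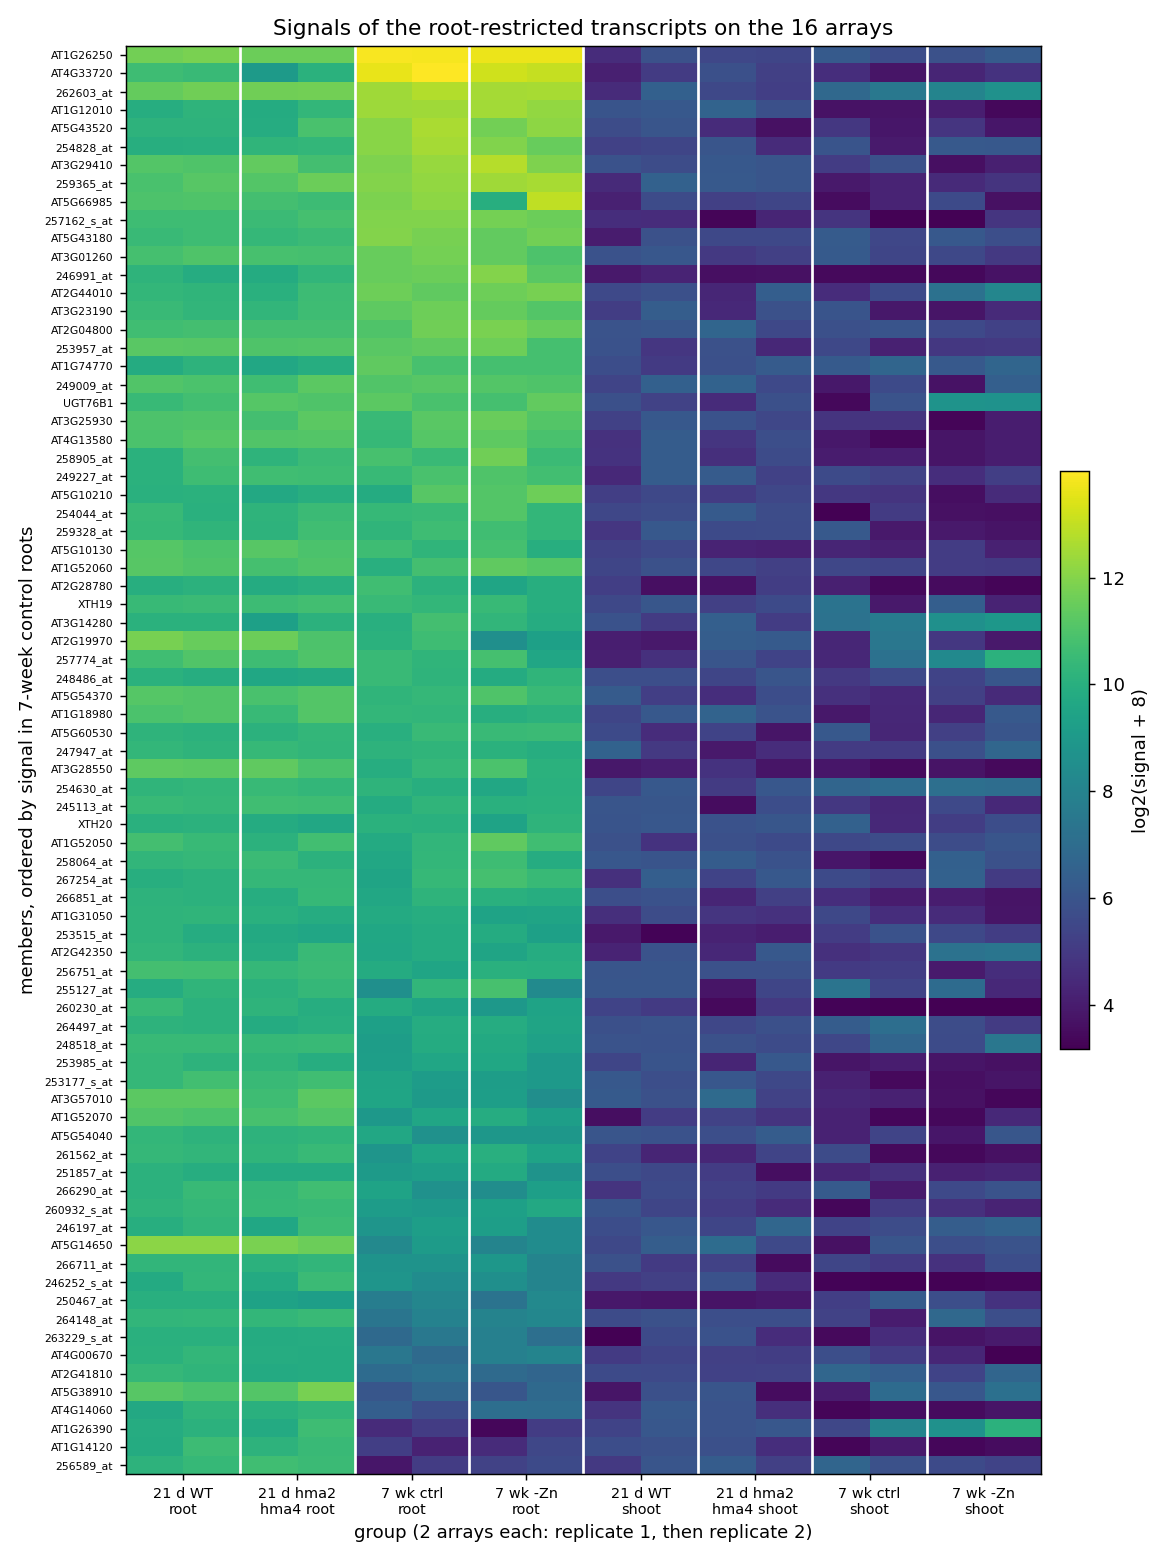
Signals of all 78 members on the 16 arrays as log2(signal + 8), with 1 row for each probe set, ordered by its mean in 7-week control roots, and 2 columns (replicates 1 and 2) for each group. The 8 root columns on the left are bright for nearly all rows, except for a few rows at the bottom in the 7-week roots, and the 8 shoot columns are dark except for a few rows that are brighter in Zn-deficient shoots.

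The brightest member in 21-day wild-type roots was AT5G14650, of the polygalacturonases that cut pectin, at 4365 and 4389 on the 2 arrays. The next were AT1G26250, a proline-rich extensin-like wall protein, at 3254 and 3554, and AT2G19970, of the secreted CAP proteins related to pathogenesis-related protein 1, at 3524 and 2857. The next members that carry a gene name came from wall, lectin, terpene and secreted protein families, with 3 unnamed probe sets of similar signal between them. They were AT3G28550 (extensin-like, mean 2485), AT3G57010 (strictosidine synthase-like, 2459), AT5G54370 (related to late embryogenesis abundant proteins, 2175), AT1G52060 (jacalin lectin, 2165), AT5G38910 (germin-like, 2132), AT3G29410 (terpene synthase, 2113) and AT5G10130 (Ole e 1 allergen and extensin family, 2104). The median member had a signal of 1274 in these roots and 42.8 in the shoots of the same seedlings, and 41 of 78 lay below the background level of 52.2 on both shoot arrays. That level is the highest signal of the array's Trpn control probe sets.

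The limits do not mark a gap in the values. Just inside the root limit were the unnamed probe set 254828_at (1001), AT1G74770 (1012), of the hemerythrin and zinc-finger E3 ligases of iron sensing, and the unnamed 248486_at (1015). Just outside it were XTH18 (989.9), a wall xyloglucan enzyme next to the member XTH19, AT3G19430 (988.7) and the unnamed 256158_at (982.0). On the shoot side, AT3G57010 (59.3), the unnamed 255127_at (59.1) and the ethylene-forming ACC oxidase AT1G12010 (58.9) were just inside, while AT2G35380 (60.2), the unnamed 251942_at (60.8) and AT5G66390 (61.1) were just outside.

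The 7-week plants, whose arrays did not choose the members, kept nearly all of them on the root side. Of the 78, 75 passed the filter on dim probe sets and were tested, and 72 of these were higher in roots than in shoots of 7-week control plants (limma, Benjamini-Hochberg adjusted p under 0.05), with none lower. Over all 17059 probe sets tested, 35% were higher and 19.8% lower in roots. Members passed the filter mostly through their roots, and the 3 it dropped were dim in 7-week roots. The test counts here, in either medium, are therefore not read against the shares of all probe sets. Counted over all 78, both root arrays lay above both shoot arrays for 75 members and below them for 2, against 43.4% and 30.6% of all probe sets. The median difference between roots and shoots was 5.38 on the log2(signal + 8) scale for the members against 0.35 for all probe sets tested. The bulk tissues cannot tell fewer cells of a type from less RNA per cell. In Zn-deficient plants 71 members were higher in roots and 1 was lower, against 32.4% and 18.4% of all probe sets, with a median of 5.16. The arrays there did not overlap for 74 that were higher in roots and 1 that was lower, against 42.9% and 25.5%. The same thresholds, above 1000 in roots and below 60 in shoots, were met in 7-week control plants by 39 of the 78, which is 50% of them and 22.7% of the 172 probe sets that met the thresholds there. They were met by 34 members in Zn-deficient plants, by 52 in the mutant, and by 23 in every genotype, age and medium.

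AT4G33720, of the CAP family, had the widest gap between the tissues of 7-week control plants. Its signals were 12880 and 16309 in roots and 16.1 and 5.77 in shoots. Every root array lay far above every shoot array, and the root signal was at least 277-fold above the background level, which neither shoot array reached (log2 difference 9.64 ± 0.33 SE, limma adjusted p = 2.4e-07). The ACC oxidase AT1G12010, which makes the hormone ethylene, read 5351 and 5558 in these roots and 4.90 and 5.41 in the shoots. It was at least 104-fold above background (8.70 ± 0.28 SE, limma adjusted p = 2.21e-07). The extensin-like AT1G26250 had the highest mean root signal of any member in these plants, at 14949 and 14664, against 68.2 and 44.3 in shoots, a log2 difference of 7.87 ± 0.27 (SE, limma adjusted p = 2.44e-07). The groups did not overlap for any of these genes. AT5G43520, of the Cys/His-rich C1 domain proteins, was at least 99.3-fold above background in roots, the terpene synthase AT3G29410 at least 84.6-fold, and AT4G13580, of the dirigent proteins that guide lignan and lignin coupling, at least 33.5-fold.

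A few members were dim in roots at 7 weeks. AT1G26390, a berberine bridge enzyme-like oxidase, read 919 and 1112 in 21-day wild-type roots but 14.7 and 25.9 in 7-week control roots. Its shoots read 36.2 and 263.5 in the same 7-week plants, so both shoot arrays lay above both root arrays, although the difference did not pass the test (log2 difference between roots and shoots -1.98 ± 0.89 SE, limma adjusted p = 0.0892). Without control shoot replicate 1 the difference passed (adjusted p = 0.0153), and without control shoot replicate 2 it was -0.67 (adjusted p = 0.538). Under Zn deficiency the same gene read 2.29 and 25.7 in roots and 392 and 1124 in shoots, and it was then lower in roots, at least 12.7-fold (-5.18 ± 0.89 SE, limma adjusted p = 0.00155). It is the only member that passed the test as lower in roots than in shoots in either medium.

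The germin-like AT5G38910 and the DUF642 wall protein AT2G41810 were also dim in 7-week roots. AT5G38910 read 59.99 and 99.6 in control roots and 7.77 and 117.8 in control shoots, where the groups overlap (log2 difference 0.94 ± 0.85 SE, limma adjusted p = 0.375). Its 21-day wild-type roots had read 2326 and 1939. AT2G41810 read 114.8 and 142 in control roots and 100.4 and 75.7 in shoots, with a difference of 0.51 ± 0.45 (SE, limma adjusted p = 0.357). The remorin AT4G00670, of a family of plasma membrane proteins, still passed the test at 169.3 and 113.2 in roots against 47.4 and 25.8 in shoots (1.76 ± 0.47 SE, limma adjusted p = 0.0118). The other 3 dim members did not pass the filter and were not tested. They were AT1G14120, of the 2-oxoglutarate and iron dependent oxygenases, at 28.3 and 10.6 in roots, AT4G14060, of the major latex proteins, at 76.4 and 46.9, and the unnamed 256589_at at 6.03 and 26.4.

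At the other end, AT3G14280, whose product has no assigned function here, was the member with the highest mean signal in 7-week control shoots, at 145.9 and 187.9 on the 2 arrays, against 1001 and 1708 in the roots. The difference between roots and shoots was 2.92 ± 0.32 in log2 units (SE, limma, adjusted p = 0.0001), and the arrays did not overlap. AT1G74770 read 66.8 and 96.6 in shoots and 2574 and 1848 in roots. Single arrays carried other high values in shoots, such as 167.4 against 12.4 for AT2G19970 and 148 against 7.23 for XTH19.

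**Figure D2:**
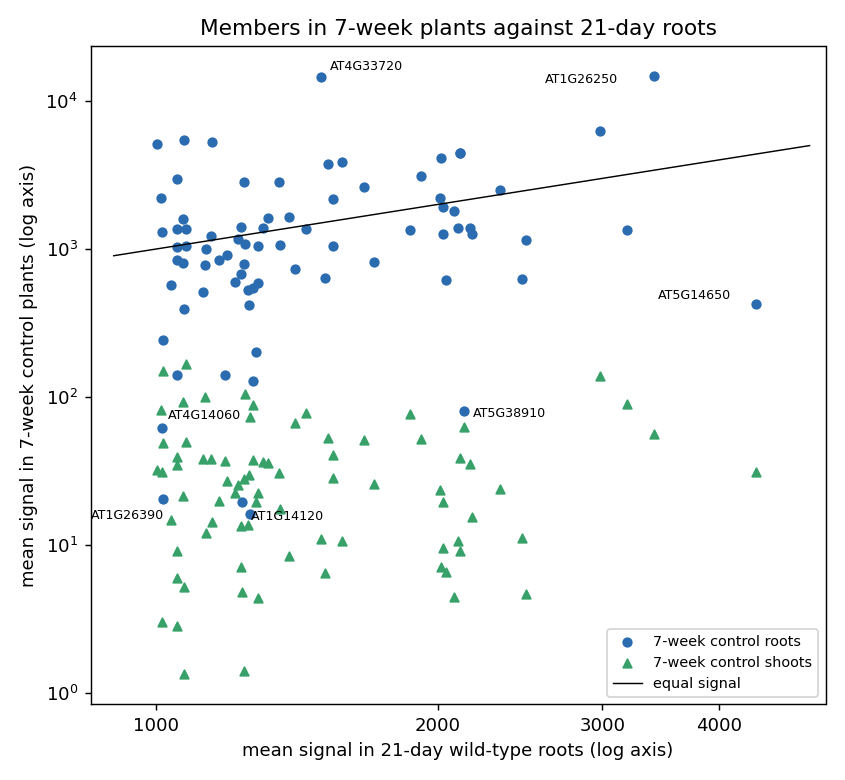
Mean signal of each of the 78 members in 7-week control roots (circles) and 7-week control shoots (triangles) against its mean in 21-day wild-type roots, with both axes logarithmic and the line marking equal signal. Most circles lie within a few-fold of the line and far above the triangles, AT4G33720 and AT1G26250 lie above it, and AT5G14650, AT5G38910, AT4G14060, AT1G26390 and AT1G14120 lie well below it.

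The rank order of the members differed between the experiments even where they stayed root-restricted. The root signal of 39 members was within 2-fold in 7-week control and 21-day wild-type roots, 15 were at least 2-fold higher at 7 weeks and 24 at least 2-fold lower, and these counts became 5 and 11 at a limit of 4-fold. Among the 5 were AT4G33720 (9.73-fold), AT1G12010 (5.10-fold), AT5G43520 (4.60-fold) and AT1G26250 (4.35-fold), and the fifth was the unnamed 254828_at (5.11-fold). The polygalacturonase AT5G14650, first of all members at 21 days, was 10.3-fold lower at 7 weeks, at 296.6 and 549.3. Across the 78 members, Spearman's rho between the 7-week control and 21-day wild-type roots was 0.29, against 0.96 between 7-week control and Zn-deficient roots and 0.88 between mutant and wild-type 21-day roots, as a description over probe sets of the same arrays. The limit of 1000 was set on the 21-day roots, so the counts of higher and lower members are not read against each other. Age, culture, experiment and the actin ratio given above cannot be told apart in this contrast.

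Zn deficiency moved no member in roots past the test. Of the 75 tested, 0 passed in Zn-deficient against control roots (limma, adjusted p under 0.05), where 0.106% of all probe sets were higher and 0% lower. At an unadjusted limma p under 0.05 there were 2 members, both higher, beside 2.31% of all probe sets. The median difference was -0.05 against 0.02 for all probe sets tested, 63 of the 75 were within 0.5 of 0 on the log2 scale and 1 was beyond 1. The 2 arrays of the groups did not overlap for 13 members that were higher and 14 that were lower under Zn deficiency, against 18.6% and 14.4% of all probe sets.

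**Figure D3:**
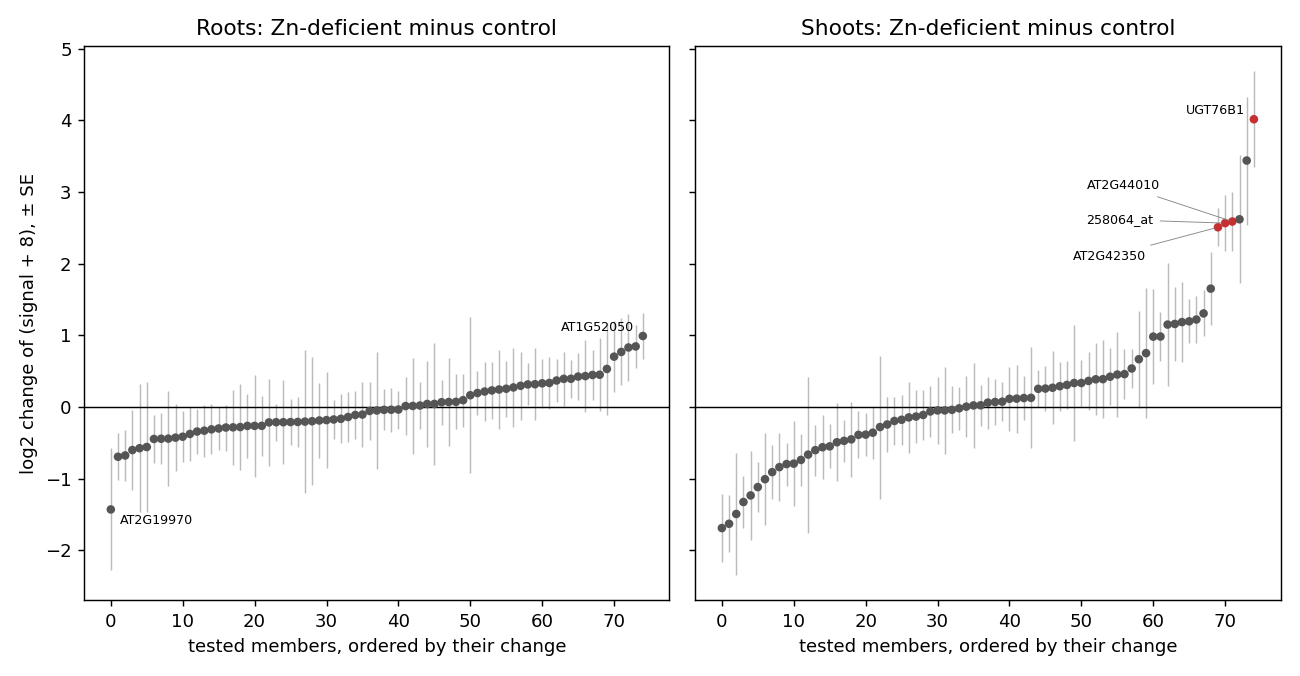
Log2 difference of (signal + 8) between Zn-deficient and control plants, with its SE, for the 75 tested members in order of size, in roots (left) and shoots (right), where red points passed the adjusted threshold. The root values run from -1.43 to 0.99 with none in red, and the shoot values run from -1.69 to 4.01 with 4 in red, all positive.

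Both members with an unadjusted p under 0.05 were jacalin lectins of 1 gene cluster. Jacalins bind sugars such as mannose, and some of them assemble with myrosinases in roots. AT1G52050 read 869.7 and 1231 in control roots and 2604 and 1637 in Zn-deficient roots, with both Zn-deficient arrays above both controls (log2 difference 0.99 ± 0.32 SE, limma adjusted p = 1). AT1G52060 read 1029 and 1732 in control and 2578 and 2246 in Zn-deficient roots, again without overlap (0.85 ± 0.30 SE, limma adjusted p = 1). The third of the cluster, AT1G52070, read 483.1 and 753.8 against 923.9 and 597.6, where the groups overlap. On chromosome 1 these 3 genes are direct neighbours, and similar copies may share probe signal.

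The other differences in Zn-deficient roots did not pass the test either. AT2G19970 of the CAP family had the lowest value, with 1091 and 1602 in control and 373.2 and 632.4 in Zn-deficient roots and a log2 difference of -1.43 ± 0.85 (SE, limma adjusted p = 1). AT4G33720 of the same family read 12880 and 16309 in control and 9586 and 8370 in Zn-deficient roots, a difference of -0.69 ± 0.33 (SE, limma adjusted p = 1). The arrays of the groups did not overlap for either gene, and both Zn-deficient arrays were the lower ones. Among members with a gene name, the next in size without overlap were AT2G28780 (-0.68 ± 0.36 SE), AT3G01260 of the galactose mutarotase-like proteins (-0.44 ± 0.35), the bHLH transcription factor AT1G31050 (-0.38 ± 0.38) and the DUF599 protein AT5G43180 (-0.34 ± 0.32). On the upper side the named members were AT4G00670 (0.77 ± 0.47 SE), AT5G54370 (0.43 ± 0.33), its family member AT5G60530 (0.27 ± 0.55) and AT2G44010 (0.22 ± 0.41). Each of these 8 had a limma adjusted p of 1. Unnamed members without overlap lay between them, the largest at -0.60 ± 0.56 (SE) for 254828_at and 0.70 ± 0.50 for 267254_at. AT5G66985 had the widest spread of any member in Zn-deficient roots, at 979.8 and 7908 on the 2 arrays.

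The members called under Zn deficiency were all in shoots, and they were near background in shoots of control plants. Of the 75 tested members 4 rose and 0 fell in Zn-deficient shoots (limma, adjusted p under 0.05), against 0.768% and 0.152% of all probe sets. At an unadjusted limma p under 0.05 there were 11 higher and 6 lower, beside 16.7% of all probe sets. Over all 78 members, the arrays did not overlap for 15 that were higher and 13 that were lower, against 18.1% and 21.2% of all probe sets. The median difference was 0.06 against -0.02 for all probe sets, and 20 of the 75 lay beyond 1 in size, or 26.7% beside 10.2% of all probe sets tested. The members passed the filter on mean signal mostly through their roots, and only 28 passed it on the 4 shoot arrays alone, where 0 were called. The counts of members in shoots, called or beyond 1 in size, are therefore not read against the shares of all probe sets. In control shoots 50 of the 78 lay below background on both arrays, which leaves little room to fall. Rises and falls are therefore not read against each other. The count of 4 depended on single arrays and on the filter. It was 0 without control shoot replicate 1 and 1 without any 1 of 6 other arrays, Zn-deficient shoots and all 4 root arrays included, and it was 1 with no filter.

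UGT76B1, a glycosyltransferase that attaches glucose to salicylic acid and isoleucic acid in plant defence, rose the most. It read 2.64 and 54.2 in control shoots and 411.1 and 404.4 in Zn-deficient shoots, while its roots read 2457 and 1910 in control and 1781 and 2691 in Zn-deficient plants. Only the shoots of Zn-deficient plants stood apart from the other shoots, whose 6 arrays lay at or below 54.2 in every genotype and age. The log2 difference in shoots was 4.01 ± 0.67 (SE, limma adjusted p = 0.0427), and it was 2.74 without control shoot replicate 1 and 5.29 without control shoot replicate 2. The RING finger protein AT2G42350, of a family of E3 ubiquitin ligases, had the smallest spread. Its control shoots read 17.4 and 22.2 and its Zn-deficient shoots 143.2 and 156.1, at least 2.86-fold above background (2.51 ± 0.27 SE, limma adjusted p = 0.00825). This call was lost without control shoot replicate 1 (adjusted p = 0.0737) and held without each of the other 7 arrays in turn. Its signal in Zn-deficient shoots was still below the 714.4 and 923.6 of the roots of the same plants.

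AT2G44010, whose product is not assigned here, read 15.4 and 40.6 in control and 138.8 and 272.5 in Zn-deficient shoots, at least 3.72-fold above background (2.59 ± 0.41 SE, limma adjusted p = 0.039). An unnamed probe set read 6.20 and 2.49 against 82.3 and 49.9, which is at least 1.23-fold above background (2.57 ± 0.39 SE, limma adjusted p = 0.0348), although 1 of its 2 Zn-deficient arrays was itself under the background level. Both groups of arrays were apart for these probe sets as well. Among the other members without overlap, 7 had a difference above 1 that did not pass the test. The largest of these, an unnamed one, read 12.5 and 140.1 in control and 310.1 and 1113 in Zn-deficient shoots (3.44 ± 0.89 SE, limma adjusted p = 0.111). AT1G26390 had a difference of 2.62 ± 0.89 (SE, limma adjusted p = 0.196) on the shoot values given above. AT3G14280 read 145.9 and 187.9 against 383.3 and 463.2 (1.31 ± 0.32 SE, limma adjusted p = 0.0961).

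**Figure D4:**
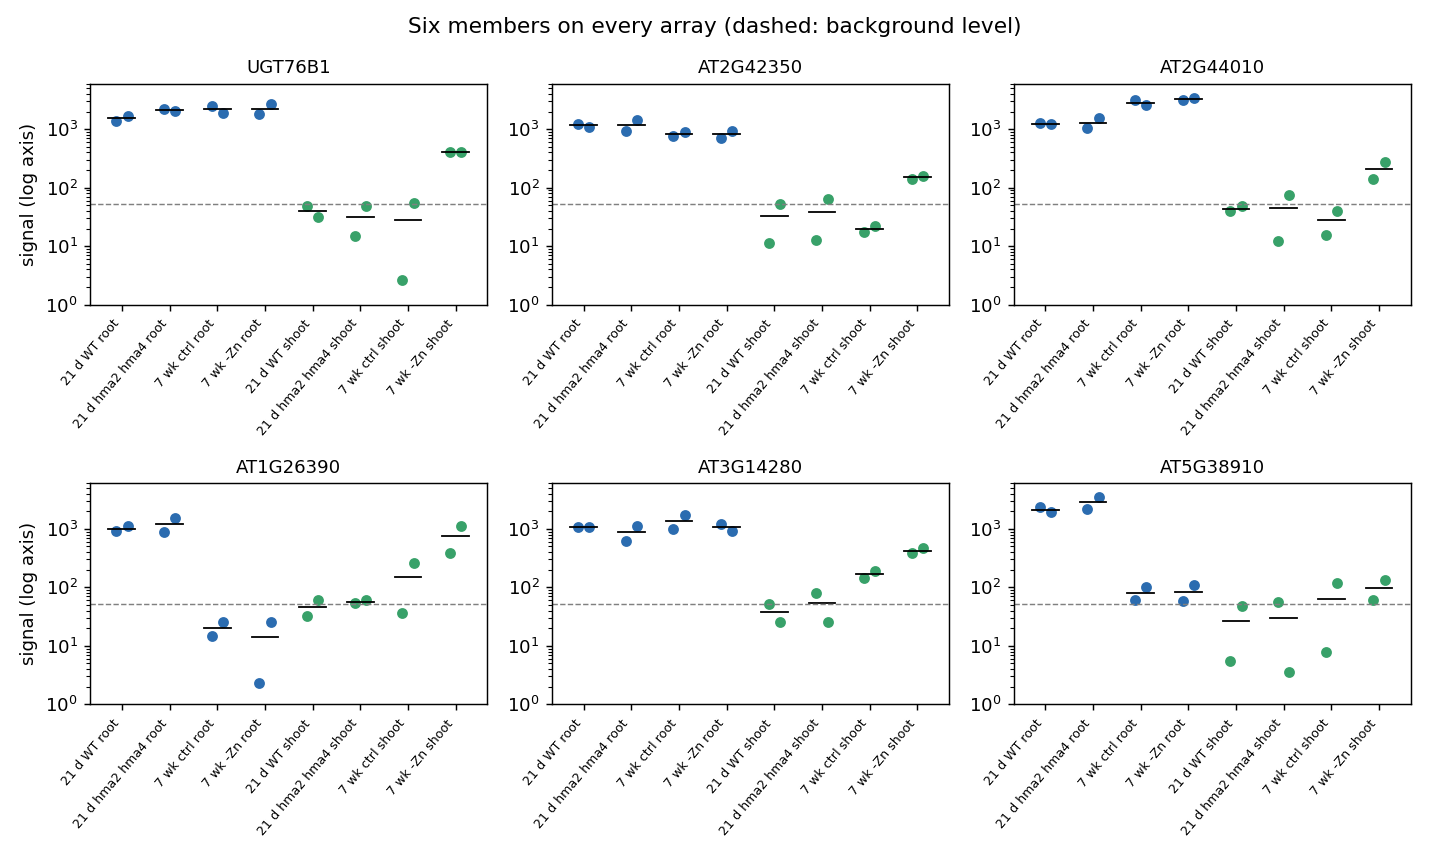
Signal of 6 members on all 16 arrays on a logarithmic axis, with blue points for roots, green points for shoots, bars at the mean of each group of 2, and the dashed line at the background level of 52.2. UGT76B1, AT2G42350 and AT2G44010 stand above the dashed line in Zn-deficient shoots and near or under it in nearly all other shoot arrays, AT1G26390 and AT5G38910 are dim in the 7-week roots, and AT3G14280 is above the line in all 7-week shoots.

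The summed signal of the root markers differed between the Zn-deficient shoot arrays, and the values are given beside these rises. PYK10 and EXPA7, an expansin of root hairs, summed to 141.0 and 274.6 in control shoots and to 1034 and 151.8 in Zn-deficient shoots. Their sum lay between 5345 and 6850 on the 7-week root arrays. The markers moved in opposite directions in shoots. From control to Zn-deficient shoots, the mean of PYK10 went from 125 to 563 and that of EXPA7 from 82.4 to 29.96. Neither difference passed the test (limma adjusted p = 0.337 for PYK10 and 0.229 for EXPA7). The high sum is therefore not a rise of both markers. Zn-deficient shoot replicate 2, with 151.8, was within the range of the controls, and it read 404.4 for UGT76B1, 156.1 for AT2G42350 and 272.5 for AT2G44010. Replicate 1 also had the highest ratio of the 7-week arrays on the first actin pair, 8.57 against 1.74 for replicate 2. The second actin pair showed no such gap, at 7572 (3′) and 4143 (5′) for replicate 1 and 6188 and 3378 for replicate 2. The brightest member of roots, AT1G26250, read 68.2 and 44.3 in control and 49.5 and 68.8 in Zn-deficient shoots, and AT4G33720 did not exceed 18.7 on any 7-week shoot array. The part of root tissue in the rises was not tested.

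Lower values under Zn deficiency in shoots did not pass the test, and the members named here lay under the background level in both media. The largest were those of the remorin AT4G00670, at 47.4 and 25.8 against 11.9 and 1.04 (-1.69 ± 0.47 SE, limma adjusted p = 0.125), and of the terpene synthase AT3G29410, at 26.5 and 50.7 against 4.23 and 9.34 (-1.63 ± 0.39 SE, limma adjusted p = 0.0925). No fold is given for these genes, because no 7-week shoot array exceeded background.

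Whether the response to Zn deficiency differed between tissues was tested with the interaction term. None of the 75 members passed it (0, limma, adjusted p under 0.05), where 0.0117% of all probe sets were higher in roots relative to shoots and 0% lower. At an unadjusted limma p under 0.05 there were 17 members, beside 8.88% of all probe sets. The members passed the filter mostly through their roots, and their shoot signals are dim, so this count is not read against that share. The strongest by p was AT2G42350, with -2.54 ± 0.38 (SE, limma adjusted p = 0.122), and UGT76B1 had the largest size, -4.0 ± 0.95 (SE, limma adjusted p = 0.322). A different response in roots and shoots is therefore not shown for these genes, although their shoot differences passed their own test.

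In the hma2 hma4 mutant, whose arrays did not choose the members, the set stayed on the root side without exception. All 78 passed the filter and all 78 were higher in mutant roots than in mutant shoots (limma, adjusted p under 0.05), against 39.8% of all probe sets higher and 21.6% lower. They passed the filter mostly through their roots here as well, so this count is not read against those shares. Both mutant root arrays lay above both mutant shoot arrays for all 78, where this held for 44.5% of all probe sets and the reverse for 25.4%. The differences ran from 3.73 for AT1G74770 to 6.88 for an unnamed probe set, with a median of 5.08 beside 0.30 for all probe sets. AT1G26390, which was shoot-sided at 7 weeks, read 872.8 and 1565 in mutant roots and 53.1 and 61.4 in mutant shoots (4.18 ± 0.31 SE, limma adjusted p = 4.64e-07). AT5G38910 read 2182 and 3515 in mutant roots and 56.2 and 3.55 in mutant shoots (6.67 ± 0.73 SE, limma adjusted p = 1.28e-05). Both genes thus had root signals like those of the wild type of the same age.

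**Figure D5:**
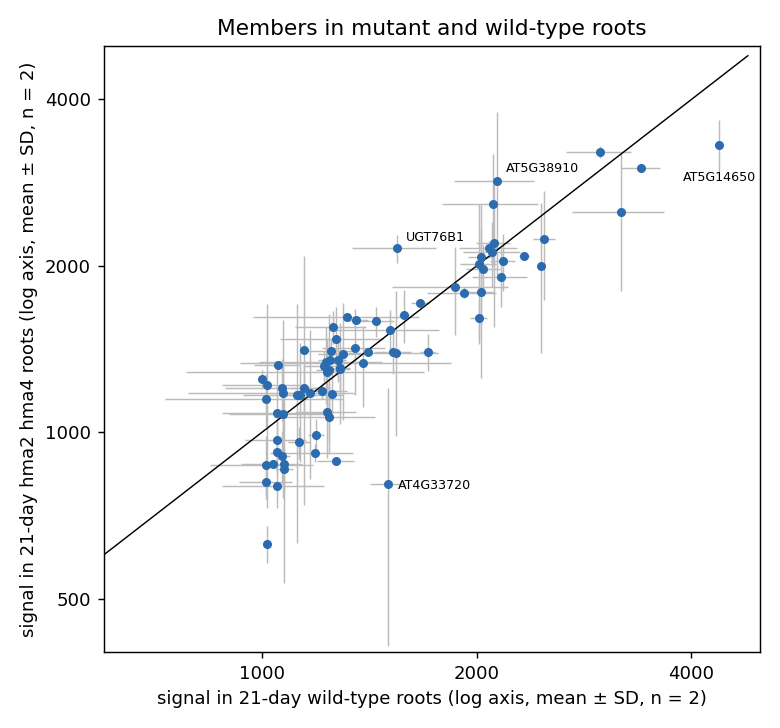
Mean signal of each of the 78 members in 21-day hma2 hma4 roots against 21-day wild-type roots, with SD bars (n = 2), both axes logarithmic and the line marking equal signal. The points follow the line, AT4G33720 lies farthest below it at 807 against 1500, and UGT76B1 lies above it at 2150 against 1545.

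The mutant roots are compared with the wild-type roots as a description with no test, because the wild-type arrays chose the members. That choice, of high root and low shoot signals, leans the differences down in roots and up in shoots. Counts of higher and lower members are therefore not read against each other. The median log2 difference was -0.01, the same as for all probe sets tested, with 37 members above 0 and 41 below. Single mutant root arrays moved this split, to 47 and 31 without replicate 1 (median 0.07) and to 22 and 56 without replicate 2 (median -0.17). No member reached a difference of 1, and 75 of 78 were within 0.5. Of the members whose arrays did not overlap, 10 were higher and 18 lower in the mutant, where 16% and 16.5% of all probe sets were. Of the 172 probe sets that met the same thresholds on the 7-week control arrays, a choice independent of both groups, 164 passed the filter and had a median of 0.03.

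The member farthest down in mutant roots was AT4G33720, at 1559 and 1441 in the wild type and 526.1 and 1087 in the mutant (log2 difference -0.98 ± 0.38 SE). It was also among the members with lower values in Zn-deficient roots, and those values did not pass their test. The unnamed 250467_at followed, with means of 1017 in the wild type and 628.3 in the mutant (-0.69 ± 0.26 SE). AT2G41810 read 1323 and 1216 against 887.2 and 889.2 (-0.51 ± 0.19 SE). The groups did not overlap for any of these, which are the 3 members beyond 0.5. The polygalacturonase AT5G14650 had a difference of -0.40 ± 0.39 (SE), AT4G00670 of -0.36 ± 0.22, AT3G57010 of -0.33 ± 0.41 and AT5G66985 of -0.33 ± 0.37, all without overlap. On the upper side UGT76B1 read 1397 and 1693 in wild-type and 2239 and 2062 in mutant roots (0.48 ± 0.35 SE), XTH19 differed by 0.13 ± 0.22 and AT2G04800 by 0.04 ± 0.30. In shoots the median difference between mutant and wild type was -0.02 beside -0.04 for all probe sets. The arrays did not overlap for 7 members that were higher and 15 that were lower in mutant shoots, where 15.5% and 20.2% of all probe sets did not. UGT76B1 was not raised in mutant shoots, at 14.9 and 48.6 against 48.6 and 31.3 in the wild type.

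Other root genes from lists fixed by symbol gave the following context, with none of them a member unless said. Between roots and shoots of 7-week control plants, both genes of a root hair list with a probe set were higher in roots (EXPA7 and EXPA18), as were 4 of 4 tested genes of auxin transport and the root meristem. Of 7 genes of the endoplasmic reticulum body and myrosinase system, 5 were higher and 1 lower, with a median of 3.81. Of 29 tested glycoside hydrolases 12 were higher and 5 lower, near the 35% and 19.8% of all probe sets, and XTH19 and XTH20 were the 2 members among the 46 with a probe set. XTH19 and XTH20 loosen and rejoin the xyloglucan of growing walls. XTH20 read 1065 and 1045 in 7-week control roots and 84.8 and 13.6 in shoots, and XTH19 read 1430 and 1292 against the shoot values above. Of 34 tested glycosyltransferases 13 were higher and 13 lower in roots, against the same shares, and UGT76B1 was the member among 50 with a probe set. The only gene of the Casparian strip list with a probe set was higher in roots. A transporter list of 52 loci had 4 with a probe set (NRT2.5, SWEET2, SWEET17 and ZIP9), and none of these passed. Of 18 loci of iron acquisition and coumarins, only BGLU42 was tested, and it did not pass. Most genes of these lists were therefore not examined. In Zn-deficient roots 0 genes of the root hair, meristem, endoplasmic reticulum body, hydrolase and glycosyltransferase lists passed (limma, adjusted p under 0.05), and in Zn-deficient shoots 1 did, UGT76B1. Of the 4 transporters 1, ZIP9, was higher in each tissue under Zn deficiency.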

How the data were processed

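Per the submitters' processing notes, signals were computed with MAS5, whose version is not given in the sources used here, and the deposited table holds their log2 values. The values show that the authors scaled each array to a trimmed mean of 500. They were turned back into linear signals, 8 was added (the 10th percentile), and log2 was taken again, which understates changes of dim genes. Signals of groups are means ± SD of 2 arrays, and array number limits their precision. The 64 control probe sets among 22810 were left out, as were those below the 25th percentile of mean signal. Each experiment had 1 fit of its 8 arrays (limma 3.58.1, R 4.3.3, intensity trend), adjusted by Benjamini-Hochberg over all probe sets at 0.05. The fit was tested on simulated data. Members and lists were chosen with earlier results of these data known. Genes were named by a fixed rule: highest levels, calls, and largest non-overlapping differences with 1 gene per probe set. Outside it, AT1G12010, AT5G43520, AT4G13580, AT5G66985 in Zn-deficient roots, AT1G52070 and the unnamed probe sets were picked after their values were seen. The annotation holds no product descriptions, so families were matched by symbol or synonym, and families whose patterns caught unrelated genes are not reported. Promoter motifs and protein features were planned and not analysed here. Alternatives were other scalings, constants, filters, thresholds and left-out arrays.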

Additional observations from a re-analysis of the deposited data

Results flagged for a closer look

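For a pair of members the order of roots and shoots was opposite between 7-week control and 21-day hma2 hma4 plants, with every array on its side. The difference itself was not tested. Shoots lay above roots without overlap for 30.6% of all probe sets in 7-week controls, and roots above shoots for 44.5% in the mutant. The share with both orders was not computed, so the pair is not read as a trait of the members. AT1G26390 had a mean of 149.9 in 7-week control shoots against 20.3 in their roots, but 57.2 in mutant shoots against 1219 in mutant roots. The unnamed 256589_at had a mean of 72.8 in 7-week control shoots against 16.2 in their roots, but 50.1 in mutant shoots against 1552 in mutant roots. Its 7-week control arrays read 96.4 and 49.3 in shoots and 6.03 and 26.4 in roots. Those of AT1G26390 read 36.2 and 263.5 in shoots and 14.7 and 25.9 in roots. For each, a shoot array and both root arrays lay under the background level of 52.2. The 21-day wild type, whose arrays chose the members, had the order of the mutant. Its means were 1015 in roots and 46.5 in shoots for AT1G26390, and 1258 and 40.5 for 256589_at. Age, culture and genotype cannot be told apart in the contrast with the mutant, nor age and culture in that with the 21-day wild type.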

How the results depend on the processing

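Each count and each of 27 single-gene values was recomputed under the alternatives. For single genes, 412 values kept their direction and side of the threshold, 35 lost the call, 5 gained it and 1 reversed (AT5G38910, roots against shoots of 7-week control plants, -0.56 without control shoot replicate 1 and 2.44 without control shoot replicate 2). The count in Zn-deficient shoots, 4, became 1 with no filter and 0 with only the 4 arrays compared, where the filter also left 28 members in place of 75, and ranged from 0 to 5 with each array left out. With membership above 2000 and below 30 it was 0, and the counts for roots against shoots were 4 in control, 4 in Zn-deficient and 5 in mutant plants, out of 5 such members, while the median for mutant against wild-type shoots was 0.42. With membership above 500 and below 120 the counts were 2 in Zn-deficient roots, 21 in Zn-deficient shoots, and 444, 432 and 501 for roots against shoots of control, Zn-deficient and mutant plants. The interaction count ranged from 0 to 1 with arrays left out. Replicate numbers did not pair the samples (correlations of deviations from -0.12 to 0.18). With a replicate block the count was 0 in Zn-deficient roots, 5 in Zn-deficient shoots, 73 for roots against shoots of control plants (AT1G26390 the addition, adjusted p = 0.0078, lower in roots), 72 in Zn-deficient plants and 78 in the mutant. Over all probe sets, the count in Zn-deficient shoots was 157, but 33 with no filter, 94 with quantile normalization, 333 with a constant of 58, 281 with a replicate block, 16 with only the 4 arrays compared, 17 without control shoot replicate 1, 331 without control shoot replicate 2, and between 27 and 66 without any 1 of the other 6 arrays. The cause was not tested. In Zn-deficient roots it was 18 and ranged from 12 to 29, and for the interaction it was 2 and ranged from 0 to 16. Shoot values of most members lie under the background level, which limits what can be said of them.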

Other observations

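Some neighbouring genes of the members were root-sided without meeting the limits. In the RefSeq gene order, 42 genes directly next to one of the 40 placed members have a probe set paired with them alone, 3 of which are members (the jacalin lectins of chromosome 1) and 39 are not. Of the 39, 11 had a mean signal at least 4-fold higher in 21-day wild-type roots than in shoots, or 28.2%, beside 9.17% of the 12253 protein-coding genes with a probe set that are not members. Neighbours are often tandem copies whose probes can share signal, so this is a description with no test.

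Some pairs changed alike between 21-day and 7-week control roots and others did not. Age, culture and experiment cannot be told apart here. AT5G60520, next to AT5G60530 and of the same family, read a mean of 580.0 in 21-day roots and 1434 in 7-week control roots, with 5.33 and 3.88 in the shoots. The root means of AT5G60530 were 1144 and 1227. AT1G26240, next to the extensin-like AT1G26250, read 437.3 and 1779 in roots and 36.1 and 10.3 in shoots. AT1G26250 rose alike, with root means of 3404 and 14807. AT1G26380, next to AT1G26390 and of the same oxidase family, shared its pattern, with 752.5 in 21-day roots, 39.7 in 7-week control roots, 53.7 in 7-week control shoots and 415.9 in Zn-deficient shoots. AT1G26400, on the other side of AT1G26390, did not, with 26.4 in 21-day roots, 14.7 in 7-week control roots and 24.3 in Zn-deficient shoots. AT5G38900, next to the germin-like AT5G38910, had means of 531.0 in 21-day roots and 128.4 in 7-week control roots, and of 324.5 in control and 1609 in Zn-deficient 7-week shoots. AT3G57020, next to the strictosidine synthase-like AT3G57010 and of its family, read 3459 in 21-day roots and 60.9 in 7-week control roots, while AT3G57010 read 2459 and 628.0.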
